A study of Mus musculus with 24 samples.

Results

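The integrin and laminin genes are the 37 genes, of 21900 protein-coding mouse genes in the RefSeq table for mm10 (GRCm38.p6), that encode the chains of the integrin receptors and of their laminin ligands. The rule that picks them uses gene symbols and no measured value, though the family was picked with earlier results of these data known. There were 18 integrin alpha chains, 8 integrin beta chains, 5 laminin alpha chains, 3 laminin beta chains and 3 laminin gamma chains.

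In mouse melanoma cells, the binding of chromatin regulators and transcription factors and the histone mark H3K4me3, typical of active promoters, were profiled with CUT&RUN. That assay brings a nuclease to an antibody on the chromatin, and the DNA it releases is sequenced. Line 493 carried a Kmt2d mutation that the labels describe no further (mutant, 12 peak lists), and line 971 was wild type for Kmt2d (WT, 10 peak lists). Both lines were melanoma cells grown in DMEM/F12 medium with fetal bovine serum and antibiotics, and each genotype was represented by 1 line, so effects of line and of genotype cannot be told apart. H3K4me3, Menin, UTX, ARID1A, SMARCC1, ARID2, PBRM1, BRD9 and TFAP2A, 9 targets in all, were profiled in both lines, TFAP2B and SOX10 (antibodies T and U) were used in the mutant line only and KMT2D in the WT line only. With 1 library per target and line there were no replicates and nothing could be tested, and each difference below is a difference between 2 libraries.

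An integrin is a receptor of an alpha and a beta chain that spans the cell membrane and ties the cytoskeleton to the extracellular matrix. A laminin is a trimer of an alpha, a beta and a gamma chain, and laminins build the sheet of the basement membrane to which melanocytes of the epidermis attach. KMT2D methylates histone H3 lysine 4 mainly at enhancers and sits in a complex with the H3K27 demethylase UTX, while Menin belongs to the related KMT2A and KMT2B complexes that act at promoters. ARID1A and SMARCC1 are subunits of the SWI/SNF chromatin remodellers, and TFAP2A, TFAP2B and SOX10 are transcription factors of the neural crest and the pigment lineage.

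A gene-end peak is a peak within 1 kb of either end of a gene, since the gene table gives no strand, and a locus is the gene with 20 kb on each side. Fold enrichment is the authors' value for a peak and is compared only within its own list. To set a gene in both lines side by side, its fold enrichment is also given as a percentile among all genes with a gene-end peak in the same list.

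Promoter sequences are shown for 6 genes whose start regions differ in what they carried. RefSeq promoters (GRCm38.p6, 250 bases before to 50 after a start, printed in the gene's own direction) matched 23 of the 37 genes, the others including Itgad, Itgae, Itgal, Itga6, Itga7, Itgb2, Itgb3, Itgb4, Lama1, Lama3, Lama4, Lamc1 and Lamc3. Capitals mark the motifs searched on both strands: GCCNNNGGC for TFAP2, ACAAAG or ACAATG for SOX factors and TGANTCA for AP-1. Itga1 (chr13:115101915-115102214, minus strand) and Itga4 (chr2:79255176-79255475, plus strand) had TFAP2A, TFAP2B and SOX10 called within 1 kb of the start in the mutant line. The SOX10 peak of Itga4 (chr2:79255631-79255869) lay outside the printed window. Itgb1 (chr8:128685404-128685703, plus strand) had KMT2D at its start in the WT line. Itga3 has a pair of starts in the table, an inner one (chr11:95069149-95069448, minus strand) without a peak in any list and an outer one (chr11:95076665-95076964, minus strand) with H3K4me3. Lama5 (chr2:180225810-180226109, minus strand) had H3K4me3 and TFAP2A in both lines, and Itga11 (chr9:62677605-62677904, plus strand) had H3K4me3 in the mutant line alone.
Itga1: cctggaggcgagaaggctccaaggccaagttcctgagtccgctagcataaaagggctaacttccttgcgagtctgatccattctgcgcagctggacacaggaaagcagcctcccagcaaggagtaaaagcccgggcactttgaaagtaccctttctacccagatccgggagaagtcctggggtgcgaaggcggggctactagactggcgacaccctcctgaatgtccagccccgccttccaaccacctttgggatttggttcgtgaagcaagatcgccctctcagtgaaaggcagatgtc
Itga4: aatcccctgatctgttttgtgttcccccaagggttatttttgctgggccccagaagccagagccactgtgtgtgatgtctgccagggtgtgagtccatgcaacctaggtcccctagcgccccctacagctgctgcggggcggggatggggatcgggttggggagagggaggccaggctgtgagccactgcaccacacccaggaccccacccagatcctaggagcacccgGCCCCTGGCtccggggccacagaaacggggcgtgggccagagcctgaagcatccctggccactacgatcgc
Itgb1: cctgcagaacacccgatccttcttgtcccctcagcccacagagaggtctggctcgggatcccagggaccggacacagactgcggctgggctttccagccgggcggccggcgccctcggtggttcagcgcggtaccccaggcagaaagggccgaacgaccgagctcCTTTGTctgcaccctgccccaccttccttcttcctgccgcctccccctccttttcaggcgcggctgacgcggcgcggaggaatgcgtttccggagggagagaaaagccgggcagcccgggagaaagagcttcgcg
Itga3 inner start: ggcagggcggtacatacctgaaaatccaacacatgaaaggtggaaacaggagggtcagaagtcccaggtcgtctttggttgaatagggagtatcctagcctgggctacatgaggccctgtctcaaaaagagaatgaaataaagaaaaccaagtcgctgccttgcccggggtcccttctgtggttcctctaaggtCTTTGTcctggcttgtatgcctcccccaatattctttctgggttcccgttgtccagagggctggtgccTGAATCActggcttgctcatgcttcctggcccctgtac
Itga3 outer start: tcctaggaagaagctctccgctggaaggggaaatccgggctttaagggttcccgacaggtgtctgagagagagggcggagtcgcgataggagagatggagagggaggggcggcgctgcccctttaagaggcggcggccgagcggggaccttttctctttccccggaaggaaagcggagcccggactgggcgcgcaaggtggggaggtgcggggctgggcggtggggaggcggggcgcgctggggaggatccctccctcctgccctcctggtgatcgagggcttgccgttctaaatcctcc
Lama5: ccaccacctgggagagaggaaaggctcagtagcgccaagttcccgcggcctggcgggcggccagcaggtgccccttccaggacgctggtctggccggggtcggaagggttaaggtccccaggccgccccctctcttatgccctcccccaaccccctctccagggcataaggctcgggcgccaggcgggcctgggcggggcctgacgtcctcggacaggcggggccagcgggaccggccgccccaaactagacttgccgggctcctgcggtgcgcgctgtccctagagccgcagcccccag
Itga11: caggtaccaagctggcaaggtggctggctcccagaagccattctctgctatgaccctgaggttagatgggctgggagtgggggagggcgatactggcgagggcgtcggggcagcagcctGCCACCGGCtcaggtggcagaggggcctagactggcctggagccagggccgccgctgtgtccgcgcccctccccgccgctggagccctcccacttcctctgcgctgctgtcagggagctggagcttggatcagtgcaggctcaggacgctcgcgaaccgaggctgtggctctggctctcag

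The TFAP2 letters were found in 4 of the 26 promoter windows of these genes (Itga11, Itga2, Itga4 and Itga8), or 15.4%, against 19.9% of the 21263 windows of protein-coding genes. SOX letters were in 3 windows (Itga3, Itga8 and Itgb1), or 11.5%, against 25.7% of all. AP-1 letters were in 3 windows (Itga3, Itga9 and Itgax), or 11.5%, against 6.99% of all. Of the 4 genes with TFAP2 letters only Itga4 had a TFAP2A gene-end peak, and of the 3 genes with SOX letters none had a SOX10 gene-end peak. TFAP2A peaks also lay at the starts of Itga1, Itgb1 and Lama5, whose windows lack the TFAP2 letters. GC content of the windows printed above ran from 52.3% at the inner Itga3 start to 72.7% at Lama5, against a median of 56.3% over all windows.

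H3K4me3 marked about as many of these genes as of genes at large. A gene-end peak was present at 22 of the 37 genes in the mutant line, against 18 in the WT line, beside 53.8% of all genes in the mutant list and 49.3% in the WT list. All 18 genes marked in the WT line were also marked in the mutant line. The other 4 (Itgad, Itga9, Itga11 and Lama1) were marked in the mutant line only, beside 5.09% of all genes, and 0 were marked in the WT line only, beside 0.543% of all genes. No gene-end peak of any of the 22 lists lay at 12 of the 37 genes, beside 43.1% of all genes, among them Itga2b, Itgae, Itgal, Itgam, Itgax, Itgb4, Itgb6, Itgb7, Lama2, Lama3 and Lamb3, which leaves 25 genes with at least 1.

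TFAP2A had the most gene-end calls in the mutant line alone as deposited, while at equal depth it and H3K4me3 had 4 each. It was called at 16 genes in the mutant line and at 10 in the WT line, beside 34% and 24.6% of all genes. Itga6, Itga7, Itga9, Itgb3, Itgb8, Lama4 and Lamb1 (7 genes) had it in the mutant line only, beside 10.6% of all genes, and Itgb2 in the WT line only, beside 1.21%. Menin was called at 11 genes in the mutant line and 9 in the WT line, beside 37.9% and 31.6% of all genes. Itga5, Itga6 and Lama4 had Menin in the mutant line only, beside 8.28% of all genes, and Itga3 in the WT line only, beside 1.92%.

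UTX and SMARCC1 were called at few of these gene ends, and ARID1A at as many as TFAP2A in the WT line. UTX was called at 4 genes in the mutant line (Itga1, Itga10, Itgb1 and Lama4) and at 2 in the WT line (Itgb1 and Lamc1), beside 8.86% and 11.2% of all genes. Of these 3 were called in the mutant line only, beside 2.14% of all genes, and 1 in the WT line only, beside 4.43%. ARID1A was called at 10 genes in each line, beside 20.9% of all genes in the mutant list and 15.7% in the WT list. Itga2 and Lama4 had ARID1A in the mutant line only, beside 7.94% of all genes, and Itgb3 and Lamb2 in the WT line only, beside 2.76%. SMARCC1 was called at 0 genes in the mutant line, where its list was small (0.598% of all genes), and at Lamc1 in the WT line (2.72% of all genes). The share of all genes with SMARCC1 in the mutant line only was 0.338%, and in the WT line only 2.46%.

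Targets mapped in a single line gave short lists of genes. In the mutant line TFAP2B was called at the ends of 10 genes (Itga1, Itga4, Itga5, Itga10, Itgb1, Itgb5, Lama4, Lamb1, Lamb2 and Lamc1), beside 21.9% of all genes. SOX10 was called by antibody U at 3 genes (Itga1, Itga4 and Lama4), beside 3.83% of all genes, and by antibody T at Lama4 alone, beside 0.991%. In the WT line KMT2D was called at 2 genes (Itgb1 and Lamc1), beside 10.2% of all genes. BRD9 was called at Lamc1 in the WT line, beside 0.21% of all genes, and neither ARID2 nor PBRM1 had a gene-end peak here in either line.

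**Figure D1:**
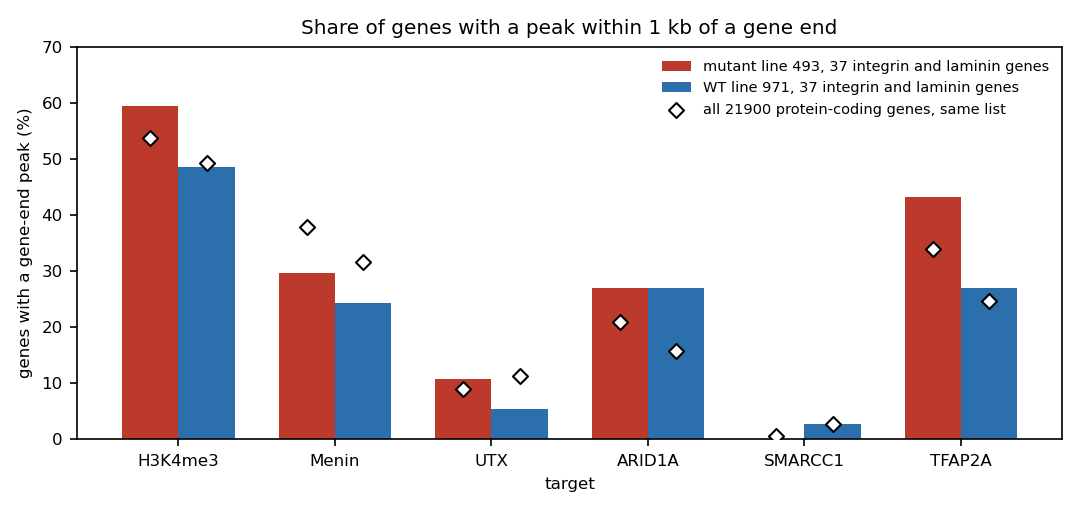
Share of genes (%, vertical axis) with a peak within 1 kb of a gene end, for 6 targets (horizontal axis). Bars are the 37 integrin and laminin genes in the mutant line 493 (red) and the WT line 971 (blue), and diamonds are all 21900 protein-coding genes in the same list. The TFAP2A bar of the mutant line stands above its diamond (16 of 37 genes, against 34% of all genes), and both Menin bars stand below theirs.

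The lists differed in depth, which bears on every call above. The depth at which the caller ran, reconstructed from fold enrichment and −log10 p, was 2.22 M fragments in the mutant line and 1.19 M in the WT line for H3K4me3, and its ratio ran from 1.58 (UTX) to 2.37 (ARID2) except for SMARCC1, where the mutant list was the shallower one (0.407 M against 1.03 M). When the deeper list of each target was thinned to the depth of the shallower, the 4 H3K4me3 calls and the 3 UTX calls of the mutant line alone were the same genes, and TFAP2A kept 4 of 7 (Itga6, Itgb8, Lama4 and Lamb1). Pigment cell genes carried H3K4me3 at 5 of 10 listed markers in the mutant line and 3 of 10 in the WT line. Among all genes the shares were 53.8% and 49.3%. Mitf, Pmel and Erbb3 had it in both lines, and Sox10 and Rab27a in the mutant line only. Of the pigment enzymes Tyr, Tyrp1 and Dct none had an H3K4me3 gene-end peak in either line. Among markers of other cells, H3K4me3 lay at 0 of 6 blood cell, 1 of 6 keratinocyte, 1 of 4 endothelial and 3 of 8 fibroblast genes in each line. None of these marker sets, pigment cells included, was marked more often than genes at large. Peaks do not measure RNA, so these values do not show the cell type.

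Among the laminin-binding integrin alpha chains were Itga3 and Itga7, the genes with the lowest H3K4me3 percentile in the mutant line relative to the WT line. Itga3 pairs with the beta chain of Itgb1 in a receptor for the laminins of the epidermal basement membrane. Its gene-end H3K4me3 peak had a fold enrichment of 5.7 in the mutant list (percentile 4.21 of marked genes), against 19.7 in the WT list (percentile 76.5). That difference of −72.3 percentile points was the lowest among the 18 genes marked in both lines. The peak covered 538 bases in the mutant line and 2590 in the WT line, and Menin lay there in the WT line only, at a fold enrichment of 4.82.

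Itga7, the laminin receptor chain of muscle, followed with a fold enrichment of 14.1 in the mutant list and 25.1 in the WT list. Its percentile was 23.6 in the mutant line and 94.3 in the WT line, a difference of −70.7. Itga6, whose product pairs with the chains of Itgb1 or Itgb4, differed in the other direction, with 37.9 in the mutant list (percentile 91.3) and 17.1 in the WT list (percentile 62.4). At that end of Itga6 the mutant line also had TFAP2A at 9.33 and Menin at 5.4, and the WT line had neither, though the Menin call did not hold at equal depth. So the 3 laminin-binding chains were not placed alike: 1 ranked higher in the mutant line and the other 2 ranked lower there.

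Collagen-binding alpha chains (Itga1, Itga2, Itga10 and Itga11) each had a paired-target gene-end call in the mutant line that the WT line lacked. These were UTX at Itga1 and Itga10, ARID1A at Itga2 and H3K4me3 at Itga11, with none the other way round. Calls in the mutant line only covered 2.14% of all genes for UTX, 7.94% for ARID1A and 5.09% for H3K4me3. In the WT line only the shares were 4.43%, 2.76% and 0.543%. The calls of Itga2 and Itga11 did not hold at a −log10 q of at least 5. With a window of 2.5 kb Itga2 had SMARCC1 in the WT line only. Itga1 (chr13:114958079-115101964) held 7 mutant lists at its start, against 4 in the WT line. H3K4me3 there was 19.5 in the mutant list (percentile 39) and 11.7 in the WT list (percentile 31.7), and Menin was 17.6 (percentile 93.1) in the mutant list and 9.22 (percentile 60.8) in the WT list. UTX at 9.56, TFAP2B at 7.4 and SOX10 by antibody U at 8.77 were called in the mutant line, of which UTX was also mapped in the WT line and was not called there. Inside the gene a site at chr13:115037414-115037735 had UTX at 10.5, ARID1A at 20.8, TFAP2A at 6.99 and SOX10 U at 9.43 in the mutant line and no peak of any WT list.

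Itga2 had H3K4me3 at 20.8 in the mutant list (percentile 43.3) and 7.67 in the WT list (percentile 14), a difference of 29.3 points. Inside it, 5.02 kb from its nearer end (chr13:114838104-114839769), 7 mutant and 4 WT lists met, among them SOX10 T at 14 and SOX10 U at 24.3. That SOX10 U peak ranked 100 among the 6358 of its list. TFAP2A at the same site was 28.3 in the mutant list and 10.7 in the WT list.

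Itga10 and Itga11 had no strong H3K4me3 at their starts. Itga10 had none at either end, and its calls lay at its 3′ end, where ARID1A was 17.8 in the mutant list (percentile 86.9) and 4.14 in the WT list (percentile 4.83). TFAP2A at that end was 17.8 in the mutant list (percentile 67.9) and 4.8 in the WT list (percentile 9.14), with UTX at 6.09 in the mutant line only. Itga11 had an H3K4me3 peak of 5.41 over 432 bases in the mutant line only, with a −log10 q of 4.7. A site inside Itga11 (chr9:62763593-62764165) had ARID1A at 11.5 in the mutant list and 14.5 in the WT list, and UTX at 9.99 and KMT2D at 5.1 in the WT line. Over its locus Itga11 had 3 mutant and 4 WT peaks of the 9 paired targets.

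Receptors for fibronectin and related ligands (Itga4, Itga5, Itga8, Itga9 and Itgav) mostly had their mark in both lines. Itga4, whose product binds VCAM1 and fibronectin, had H3K4me3 at 20.3 in the mutant list (percentile 41.7) and 8.31 in the WT list (percentile 16.8). TFAP2A at its start was 20.9 in the mutant list (percentile 74.2) and 5.35 in the WT list (percentile 11.4), ARID1A was 12.2 and 6 in the mutant and WT lists, and Menin 9.63 and 4.53. All 4 targets thus ranked higher in the mutant line at this start, whose sequence above holds the TFAP2 letters. TFAP2B at 7.67 and SOX10 U at 4.45 were also called within 1 kb of that start. The SOX10 peak lay outside the printed window and had a −log10 q of 3.3.

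Itga5, the main fibronectin receptor chain, had the highest H3K4me3 fold enrichment of these genes in the WT list, with 34.9 in the mutant list (percentile 86.5) and 30.8 in the WT list (percentile 99.2). Menin at 6 was called there in the mutant line only. Itgav, the alpha chain shared by several vitronectin receptors, had H3K4me3 at 37.3 in the mutant list (percentile 90.4) and 19.7 in the WT list (percentile 74.9). Menin at the Itgav start went the other way, with 11.3 (percentile 71.8) in the mutant list and 22.3 (percentile 98.6) in the WT list. No TFAP2A, UTX or ARID1A peak lay at that start in either line. Itga8, a receptor chain of kidney mesenchyme, had H3K4me3 at 11 in the mutant list and 4.53 in the WT list, with percentiles of 15.9 and 3.54.

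Itga9 was marked in the mutant line only, by weak peaks of H3K4me3 (4.76, −log10 q of 3.32) and TFAP2A (4.24) at its start. Over its 294 kb and flanks these were its only peaks of the 9 targets, against 0 in the WT line. Itgad, a leukocyte chain, likewise had H3K4me3 at 4.76 in the mutant line only, but that peak also lay within 1 kb of an end of Cox6a2, its neighbour, and cannot be assigned. Of these genes in the mutant line, Itgad was the only one whose H3K4me3 calls all lay near an end of another gene too.

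Leukocyte and platelet chains had little at their ends. Itgae, Itgal, Itgam and Itgax, which mark T cells, granulocytes and myeloid cells, had no gene-end peak in any list, and neither had the platelet chain Itga2b. Their loci held 4 mutant and 2 WT peaks at Itgae, 4 and 5 at Itgal and 3 and 3 at Itgam. Of these, 3 mutant and 2 WT peaks at Itgae and all those at Itgal lay at an end of another gene. The Itgax locus held 0 peaks of the 9 targets in both lines. Itga2b nevertheless had 15 locus peaks in each line, and inside it (chr11:102466843-102467671) KMT2D reached 68.4 in the WT line, rank 71 of 6434 peaks. UTX at the same site was 22.6 in the mutant list and 80.1 in the WT list, where it ranked 96 of 9712, and TFAP2A was 29.7 in the mutant list and 21.2 in the WT list.

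Among the beta chains Itgb1, Itgb3, Itgb5 and Itgb8 had H3K4me3 in both lines. Itgb1, the partner of most matrix-binding alpha chains, had 27.9 in the mutant list (percentile 67.3) and 25.3 in the WT list (percentile 94.3). UTX at its start was 7.23 in the mutant list (percentile 46.7) and 10.7 in the WT list (percentile 45.9), and KMT2D lay there in the WT line at 11.4 (percentile 49.1). ARID1A at the Itgb1 start was 19.2 in the mutant list (percentile 89) and 10.5 in the WT list (percentile 72.2), and TFAP2A 20.7 (percentile 73.9) and 9.27 (percentile 43.1). Both lines thus had H3K4me3, Menin, UTX, ARID1A and TFAP2A at this start, and the Itgb1 locus held 20 peaks of the paired targets in each.

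Itgb3, a partner of Itgav that is known from the progression of human melanoma, had only weak H3K4me3, at 4.99 in the mutant list and 5.69 in the WT list (percentiles 2.31 and 7.24). Its locus was nevertheless among the richest, with 23 mutant and 17 WT peaks of the 9 paired targets, of which 11 and 8 were ARID1A. A site 30.1 kb into the gene (chr11:104638080-104638392) had UTX at 12.2, ARID1A at 9.33 and SOX10 by both antibodies (6.16 for T and 7.25 for U) in the mutant line and no WT peak. TFAP2A lay at its end in the mutant line only (4.12), and ARID1A in the WT line only (9.97). With a window of 2.5 kb neither was a difference between the lines.

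Itgb5, another partner of Itgav, had the most locus peaks of all 37 genes, 34 in the mutant line and 35 in the WT line. H3K4me3 at its start was 31 in the mutant list (percentile 76.9) and 22.1 in the WT list (percentile 85.4). TFAP2A made up 11 of its mutant peaks and 6 of its WT peaks, and SMARCC1 1 mutant and 6 WT peaks. The strongest KMT2D site of the gene (chr16:33878006-33879259) had 17.7 for KMT2D, with UTX at 12 in the mutant list and 14.5 in the WT list. Itgb8, which with Itgav activates latent TGF-beta, had H3K4me3 at 14.4 in the mutant list and 10.9 in the WT list, with percentiles of 24.3 and 29, and TFAP2A at 5.37 in the mutant line only.

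Itgb4, Itgb6 and Itgb7, a leukocyte chain, had no gene-end peak, and their loci held 19, 12 and 17 mutant peaks and 22, 9 and 14 WT peaks. Itgb4, the partner of Itga6 in the hemidesmosomes of epithelia, had a flank site 17.4 kb from the gene (chr11:115956496-115957293), inside the neighbouring gene Sap30bp. UTX there was 29 in the mutant list and 96.8 in the WT list, where it ranked 54 of 9712, and KMT2D was 69.9 in the WT list, rank 66 of 6434. SOX10 in the mutant line reached 30.8 for antibody T (rank 14 of 1163) and 31.1 for antibody U (rank 34 of 6358). TFAP2A was 57.3 in the mutant list and 62.7 in the WT list. Nothing in the peak lists ties this site to Itgb4 rather than to Sap30bp.

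Itgb6, an epithelial partner of Itgav, had a site inside the gene (chr2:60688902-60689593) with ARID1A at 47.5 in the mutant list and 23.5 in the WT list. UTX there was 27 in the mutant list and 11.9 in the WT list. SOX10 U at 17.2 and TFAP2A at 15.3 lay there in the mutant line, and KMT2D at 9.76 in the WT line, where TFAP2A was not called. Itgb2, the common chain of the leukocyte integrins, had TFAP2A at its end in the WT line at 15.4. A mutant TFAP2A peak of 15.3 lay in the same merged region but beyond 1 kb, so this difference rests on the window.

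Lama4, an alpha chain of laminins in vessel walls and other basement membranes, had the largest excess of locus peaks in the mutant line as deposited. Its locus (chr10:38965515-39110188, GRCm38.p6) held 20 peaks of the 9 paired targets in the mutant line and 8 in the WT line. At its lower-coordinate end 8 mutant lists and 1 WT list had a gene-end peak. H3K4me3 there was 22.3 in the mutant list (percentile 48.4) and 12.1 in the WT list (percentile 34.1). UTX at 20.5 (percentile 88.7), ARID1A at 13.3 (percentile 76.6), TFAP2A at 18.2 (percentile 69.1) and Menin at 4.17 (percentile 2.66) were called in the mutant line and not in the WT line.

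Of the targets without a WT list, TFAP2B lay at that end of Lama4 at 5.65, SOX10 T at 8.89 and SOX10 U at 13.5 (percentile 96.7). Inside the gene SOX10 U lay at 4 further sites, 3 of them also called by antibody T. The highest SOX10 U value was 21.8 at chr10:39023455-39024002, rank 139 of 6358, where UTX was 20.9 in the mutant list (percentile 93.3 of its peaks) and 12.3 in the WT list (percentile 61.9). A site at chr10:39044622-39044956 had UTX at 10.4, ARID1A at 9.33, SOX10 T at 11.5 and SOX10 U at 9.07 in the mutant line and no WT peak. The other SOX10 sites inside the gene had ARID1A in both lines, and no KMT2D peak lay anywhere in the locus. At equal depth the counts were 17 in the mutant line and 8 in the WT line, a smaller difference than those of Itga3 (4 and 15) and Lama5 (5 and 16), and the gene-end calls of UTX, ARID1A and TFAP2A in the mutant line alone held, while that of Menin did not.

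**Figure D2:**
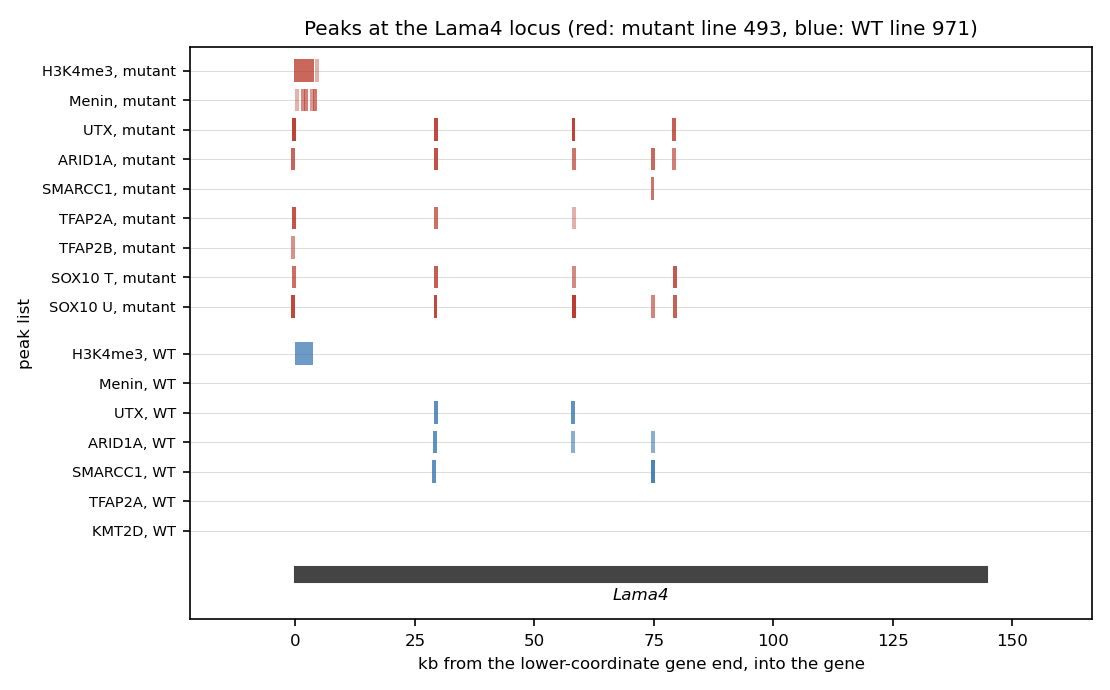
Peaks at the Lama4 locus, with the distance from the lower-coordinate gene end in kb (horizontal axis) and 1 row per peak list (vertical axis), mutant lists in red above WT lists in blue. Bars are peaks, darker with a higher percentile of fold enrichment within the list, bars narrower than the line width are widened to be visible, and the grey bar is the gene. At the gene end 8 mutant rows and only the H3K4me3 row of the WT line hold a peak.

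The other laminin alpha chains did not share this pattern. Lama5, the alpha chain of most adult basement membranes, had H3K4me3 at 22.2 in the mutant list (percentile 47.9) and 20.3 in the WT list (percentile 78.6), over 1638 and 3803 bases. Its locus held 7 mutant peaks against 16 WT peaks. At chr2:180214543-180216531 inside the gene, UTX at 7.71, SMARCC1 at 9.85, Menin at 3.95 and KMT2D at 5.8 were called in the WT line, while of these UTX, SMARCC1 and Menin had no peak in the mutant line. TFAP2A at that site was 25.5 in the mutant list and 46.8 in the WT list.

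Lama2, the muscle and nerve chain, had no gene-end peak, and its 636 kb gene held 5 mutant and 12 WT peaks, of which 0 and 5 were SMARCC1 and 3 and 6 were ARID1A. Without SMARCC1 its counts were 5 in the mutant line and 7 in the WT line. Lama1, the embryonic chain, had a single peak in all lists, H3K4me3 at 5.09 over 335 bases in the mutant line, with a −log10 q of 4.71. Lama3, the epidermal chain, had no gene-end peak and 8 mutant and 7 WT locus peaks.

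Of the beta and gamma chains, Lamb1, Lamb2 and Lamc1 carried H3K4me3 in both lines. Lamb1 had 22.9 in the mutant list (percentile 50.8) and 18.9 in the WT list (percentile 71.1), with TFAP2A at 7.67 and TFAP2B at 4.93 in the mutant line. At its start Lamb2 had H3K4me3 at 21.5 in the mutant list (percentile 45.5) and 7.06 in the WT list (percentile 11.9). The higher peak at its 3′ end, 32.7 in the mutant list and 24.1 in the WT list, also lay within 1 kb of an end of Usp19, its neighbour. The Menin, TFAP2A, TFAP2B and ARID1A calls of the Lamb2 3′ end share that position, and apart from H3K4me3 the peaks within 1 kb of the Lamb2 start were mutant Menin peaks of 5.94 and 4.28.

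Lamc1, the gamma chain of most laminins, was the fullest of the laminin genes in the WT line. At its higher-coordinate end (gene at chr1:153218922-153332786) the mutant line had H3K4me3 at 35, Menin at 8.25, ARID1A at 15.7, TFAP2A at 17.8 and TFAP2B at 15.1, and no UTX peak. The WT line had H3K4me3 at 23.6, Menin at 8.58, UTX at 10.7, ARID1A at 13.4, SMARCC1 at 6.27, BRD9 at 5.39, TFAP2A at 18.6 and KMT2D at 14.9. H3K4me3 ranked close there, at percentile 86.6 in the mutant list and 90.2 in the WT list, and so did ARID1A (82.8 and 83). Over the locus there were 25 mutant and 30 WT peaks, with UTX at 4 and 6 of them and KMT2D at 6 sites of the WT line.

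Inside Lamc1 UTX reached 20.8 in the mutant list and 17.6 in the WT list at chr1:153304659-153305448, where KMT2D was 11.4. A site at chr1:153266698-153267191 had ARID1A at 14.5, SMARCC1 at 10.7, Menin at 5.57 and KMT2D at 4.4 in the WT line and no mutant peak. Lamc3 had ARID1A at its end in both lines, 14.8 in the mutant list and 17.3 in the WT list, and no H3K4me3 within 1 kb. A mutant H3K4me3 peak of 6.83 lay 1.07 kb from that end, inside Aif1l, so this absence rests on the window. Lamb3, the beta chain of the epidermal laminin, had 3 mutant and 1 WT locus peaks and none at its ends.

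**Figure D3:**
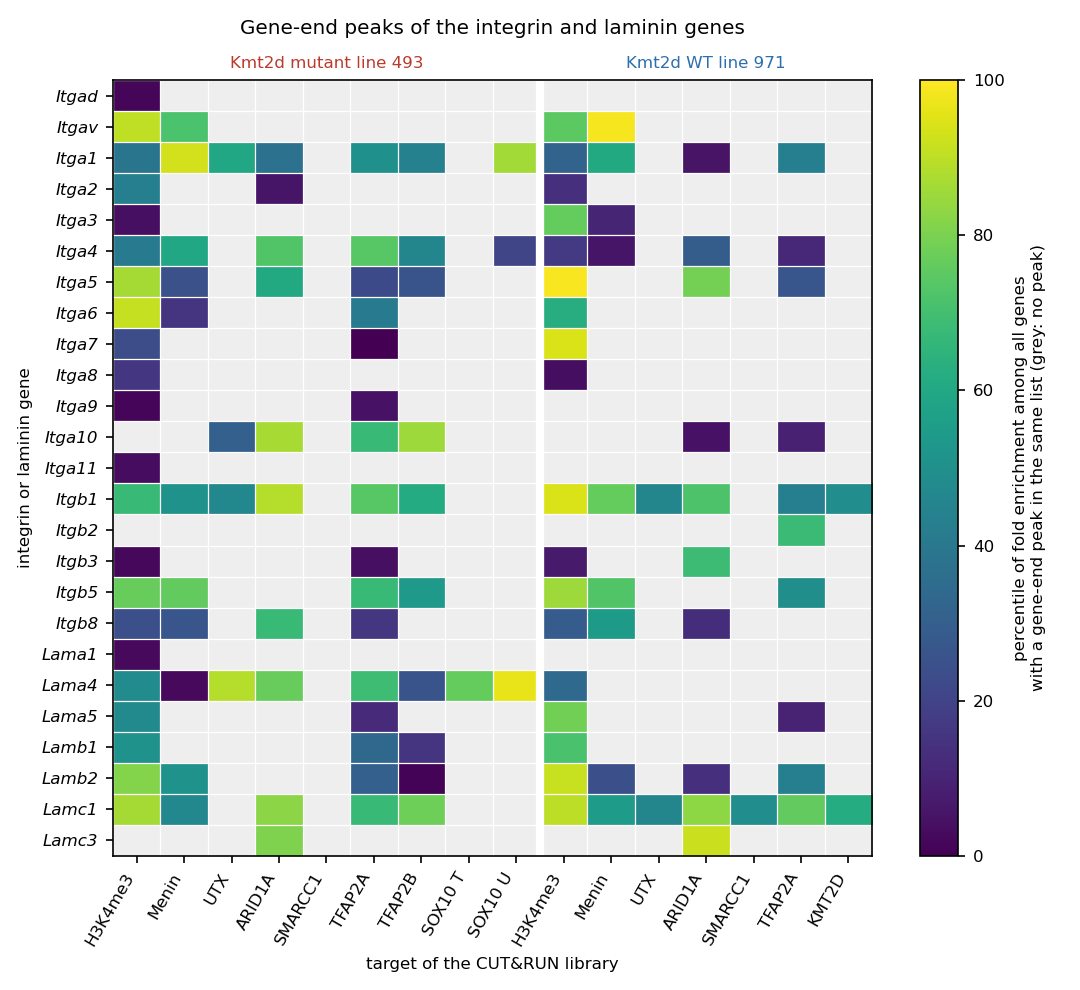
Gene-end peaks of the 25 integrin and laminin genes with at least 1 such peak (rows), in the mutant lists (left block) and the WT lists (right block), by target (columns, BRD9, ARID2 and PBRM1 left out). Colour is the percentile of fold enrichment (0 to 100) among all genes with a gene-end peak in the same list, and grey means no peak. Itga3 and Itga7 stand low in the mutant H3K4me3 column (percentiles 4.21 and 23.6) and high in the WT one (76.5 and 94.3), and the Lama4 row is coloured in all mutant columns except SMARCC1 and grey beyond H3K4me3 in the WT block.

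Over the 18 genes marked in both lines, the H3K4me3 percentile was higher in the mutant line at 7 and lower at 11, with a median difference of −4.81 points. Over all 10668 genes marked in both lines it was higher in the mutant line at 6251 and lower at 4417, with a median of 3.69. With Lamb2 taken at its own start, a choice made after the data were seen, it was higher in the mutant line at 8 and lower at 10, with a median of −4.13. The median size of the difference, whatever its sign, was 14.9 points for these genes and 13.6 for all genes. After Itga3 and Itga7, the lowest differences were those of Lama5 (−30.7), Itgb1 (−27) and Lamb1 (−20.2). With Lamb2 at the end it shares with Usp19 (−10.2), the highest were those of Itga2 (29.3), Itga6 (29) and Itga4 (24.9). Taken at its own start, Lamb2 had the highest difference of all, 33.6 points.

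Counted over whole loci, the lines differed little. The 9 paired targets had 430 peaks in the mutant line and 405 in the WT line, a ratio of 1.06, against 1.08 for the whole lists (90720 and 84374 peaks). Thinned to equal depth the counts were 360 and 392, a ratio of 0.918, against 0.953 for the lists. Gene ends held 71 mutant and 55 WT peaks, the gene bodies 212 and 204, and the flanks 147 and 146. Peaks were denser than around genes at large, with 87.9 per megabase in the mutant line and 82.8 in the WT line, against 52.9 and 48.5 over the loci of all protein-coding genes.

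The density was not even across targets. ARID1A had 27 mutant and 24.9 WT peaks per megabase at these loci, against 13.2 and 11.4 over all gene loci, and UTX 11.5 and 10.8 against 5.02 and 5.24. For H3K4me3 the values were 13.7 and 11.7, against 10.8 and 9.77. Peak counts at these loci followed the lists for most targets, with mutant to WT ratios of 1.18 for H3K4me3 (1.12 in the lists), 1.06 for UTX (0.999), 1.08 for ARID1A (1.14), 1.42 for TFAP2A (1.59), 1.37 for Menin (1.24) and 0.286 for SMARCC1 (0.253).

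Single loci differed in both directions. Of the 37 loci, 19 had more mutant peaks, 12 had more WT peaks and 6 had equal counts. At equal depth, which was applied to single loci after the data were seen, the numbers were 16, 15 and 6. As deposited but without SMARCC1, they were 23, 11 and 3. The highest excess in the mutant line was at Lama4, followed by Itga6 (13 mutant against 6 WT peaks), then equally by Itga1 (25 against 19), Itga4 (10 against 4), Itga5 (15 against 9) and Itgb3 (23 against 17). The highest excess in the WT line was at Itga3 (5 mutant against 15 WT peaks), Lama5 (7 against 16) and Lama2 (5 against 12), with Lamc1 (25 against 30) below them. Of these counts, 4 mutant and 4 WT peaks at Itga6 and 4 and 3 at Itga1 lay at an end of another gene. So did 3 and 2 at Itga3 and 2 and 2 at Lama5, and 0 in either line at the other loci named here. At equal depth there were 8 mutant and 6 WT peaks at Itga6, 20 and 17 at Itga1, 6 and 4 at Itga4, 14 and 9 at Itga5 and 20 and 17 at Itgb3. There were 4 mutant and 15 WT peaks at Itga3, 5 and 16 at Lama5, 5 and 10 at Lama2 and 21 and 29 at Lamc1. Each of these 10 loci, Lama4 included, kept its direction.

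**Figure D4:**
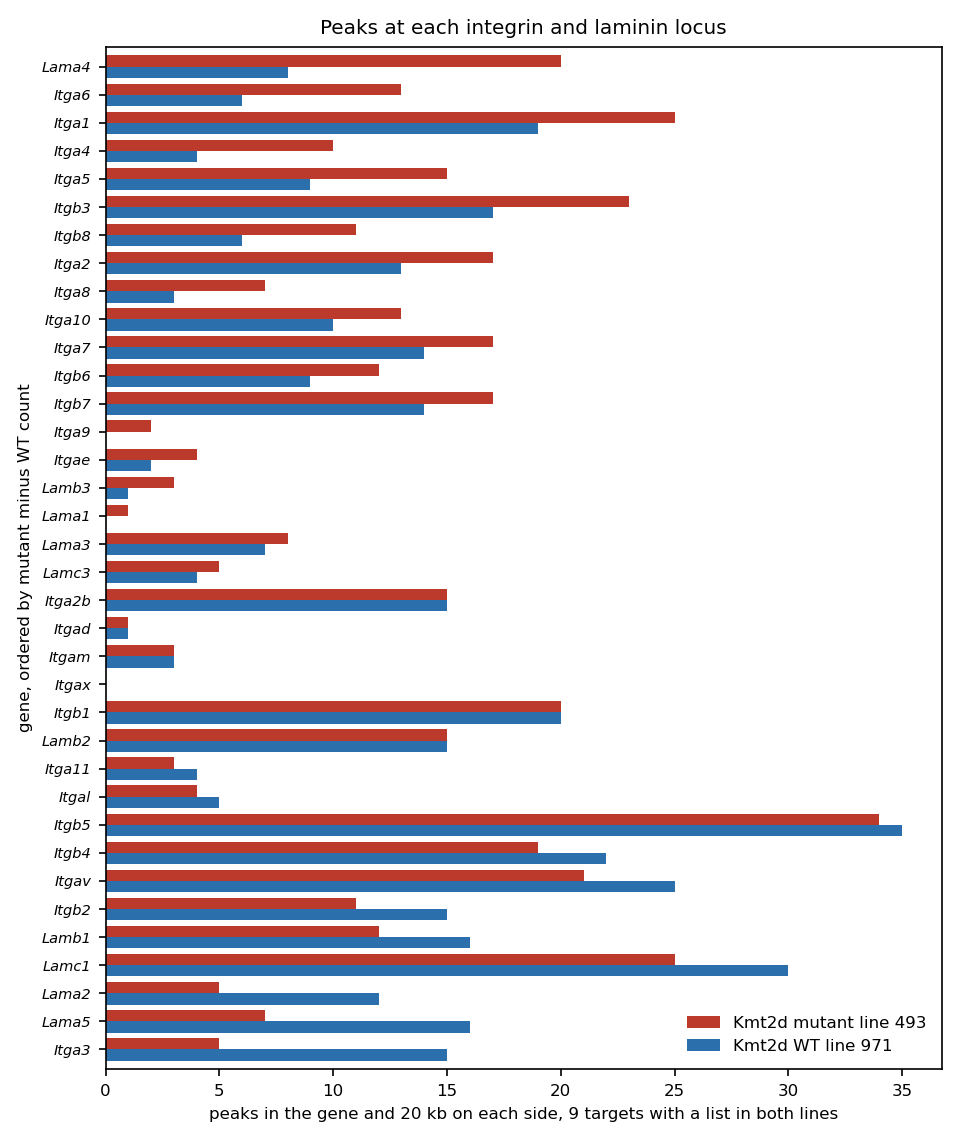
Number of peaks of the 9 targets with a list in both lines (horizontal axis) in each gene with 20 kb on each side (vertical axis, ordered by the mutant minus WT count, without 1 gene that is not reported here). Red bars are the mutant line 493 and blue bars the WT line 971. Lama4 (20 and 8 peaks) stands at the top and Itga3 (5 and 15 peaks) at the bottom.

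The Itga3 locus differed most in favour of the WT line, and most of its WT peaks lay beyond the outer start. UTX had 0 mutant and 3 WT peaks there, ARID1A 1 and 4, and TFAP2A 1 and 3, and KMT2D had 3 peaks in the WT line. A flank site 19.7 kb beyond the outer start (chr11:95096566-95097445) had UTX at 30.1 (percentile 91.2 of its list), ARID1A at 22.7 (percentile 91.4), TFAP2A at 33.2 (percentile 94) and KMT2D at 16.8 (percentile 78.9) in the WT line and no mutant peak. A second site at chr11:95088951-95089790 had UTX at 6.88, ARID1A at 3.68, TFAP2A at 7.33 and KMT2D at 7.63 in the WT line, and another at chr11:95085625-95086768 had UTX at 4.56, ARID1A at 13.5 and SMARCC1 at 8.71. None of these 3 sites lay inside a protein-coding gene. On the other side of Itga3, at an end of Pdk2, H3K4me3 was 17.4 in the mutant list and 6.48 in the WT list. The medians of these lists were 16.5 and 11.7. Set against them, the Pdk2 value was above in the mutant list and below in the WT list. The Itga3 start stood the other way round.

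**Figure D5:**
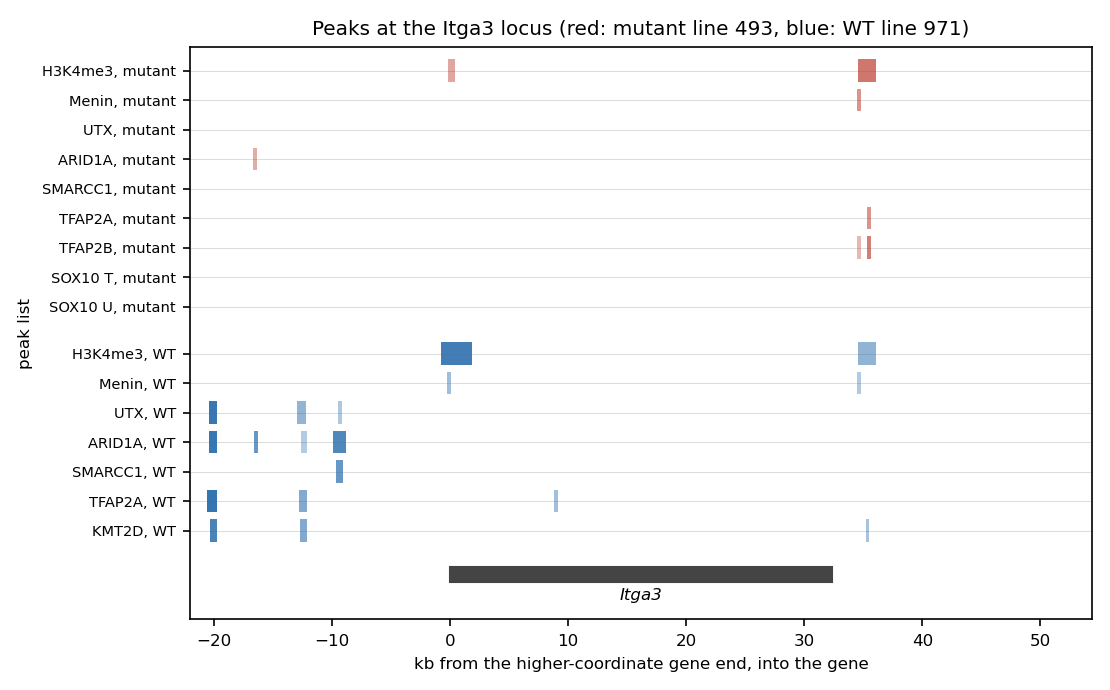
Peaks at the Itga3 locus, with the distance from the higher-coordinate gene end (the outer start) in kb (horizontal axis) and 1 row per peak list (vertical axis), mutant lists in red above WT lists in blue. Bars are peaks, darker with a higher percentile of fold enrichment within the list, and the grey bar is the gene. Left of 0 the UTX, ARID1A, SMARCC1, TFAP2A and KMT2D rows of the WT line hold peaks, while the mutant rows hold a single ARID1A peak.

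KMT2D had 38 peaks at these loci in the WT line, spread over 18 of the 37 genes, with 6 each at Itgb4 and Lamc1 and 3 at Itga3. Of the 38, 33 overlapped UTX (86.8%, 95% Wilson interval 72.7 to 94.2, counting error only), against 88.3% of all KMT2D peaks. ARID1A overlapped 34 (89.5%, 75.9 to 95.8), against 87.7%, and TFAP2A 26 (68.4%, 52.5 to 80.9), against 57.7%. H3K4me3 overlapped 11 (28.9%, 17 to 44.8), against 34.7%. In the mutant line UTX overlapped 21 of the 38 positions (55.3%, 39.7 to 69.9), against 60.6% of all KMT2D positions, and ARID1A 29 (76.3%, 60.8 to 87), against 84.3%. Each list-wide share lay inside the interval of these genes.

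SOX10 by antibody U had 39 peaks at these loci in the mutant line, also over 18 genes, with 5 at Lama4 and 4 each at Itgb4, Itgb5 and Lamc1. ARID1A overlapped 30 of them (76.9%, 61.7 to 87.4), against 74.7% of all SOX10 U peaks, UTX 25 (64.1%, 48.4 to 77.3), against 60.7%, and TFAP2A 23 (59%, 43.4 to 72.9), against 48.4%. H3K4me3 overlapped 4 (10.3%, 4.06 to 23.6), against 16.4%. Antibody T overlapped 8 (20.5%, 10.8 to 35.5), against 15.3%, and 4 of its 8 peaks at these loci were at Lama4. WT peaks lay under some of these positions too, with ARID1A at 20 (51.3%, 36.2 to 66.1), against 49% of all SOX10 U peaks, UTX at 16 (41%, 27.1 to 56.6), against 37.5%, and TFAP2A at 14 (35.9%, 22.7 to 51.6), against 24.6%. SOX10 was not mapped in the WT line here, so whether it sat there is not known from these lists.

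Merged over all lists, the peaks formed 229 regions, of which 128 had peaks of both lines, 63 of the mutant line only and 38 of the WT line only (27.5% and 16.6%, against 25.9% and 15.4% of the 38705 regions in the loci of all genes). At least 3 lists met in 10 of the regions with mutant peaks only and in 8 of those with WT peaks only, or 4.37% and 3.49% of the regions, against 2.84% and 1.61% over all gene loci. Among the mutant ones were the sites in Itga1, Itgb3 and Lama4 above, a site in Lamb1 (chr12:31310338-31310997) with UTX at 9.58, ARID1A at 9.33, TFAP2A at 14.4, TFAP2B at 7.11 and SOX10 U at 9.07, and a site in Itga8 (chr2:12255735-12256138) with ARID1A at 16.4 and SOX10 U at 8.51. More lists existed for the mutant line, which adds to its count. A single region was called in at least 15 libraries, a flank of Itga7 at an end of Bloc1s1 and Rdh5 with peaks in 16 lists.

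Partner and ligand genes of the integrins differed between the lines at some ends. Of 24 adhesion partners such as talin, kindlin and vinculin genes, H3K4me3 lay at 19 in the mutant line and 20 in the WT line. The shares of all genes were 53.8% and 49.3%. Pxn, which encodes paxillin, was marked in the WT line only (4.88), beside 0.543% of all genes. In the mutant line only 0 partners were marked, beside 5.09% of all genes. TFAP2A lay at 14 and 12 of these partners, beside 34% and 24.6% of all genes. Fermt2, a kindlin gene (7.61), and Plec, the plectin gene (4.24), had it in the mutant line only, beside 10.6% of all genes. Menin was called at 1 partner in the mutant line only (8.28% of all genes) and 1 in the WT line only (1.92%). In the WT line only, ARID1A lay at 1, beside 2.76% of all genes, UTX at 2, beside 4.43%, and SMARCC1 at 2, beside 2.46%. ARID1A, UTX and SMARCC1 were called at 0 in the mutant line only, beside 7.94%, 2.14% and 0.338% of all genes. KMT2D lay at 8 of the 24 in the WT line, beside 10.2% of all genes. Of 18 basement membrane and ligand genes, H3K4me3 lay at 15 in the mutant line and 16 in the WT line. Vtn, the vitronectin gene, had it in the WT line only (9.67), beside 0.543% of all genes, and 0 had it in the mutant line only, beside 5.09%.

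TFAP2A lay at 9 of these 18 ligand genes in the mutant line and 5 in the WT line, beside 34% and 24.6% of all genes. In the mutant line only it lay at Nid2, which encodes a nidogen (6.91), at the leukocyte adhesion ligands Madcam1 (5.01) and Icam1 (4.05), and at the fibrillin gene Fbn1 (3.39). These are 4 of 18 genes, beside 10.6% of all genes with such a TFAP2A call. Menin was called at 3 ligand genes in the mutant line only (8.28% of all genes) and 2 in the WT line only (1.92%). In the same order ARID1A had 3 and 1, beside 7.94% and 2.76% of all genes. UTX had 1 and 2, beside 2.14% and 4.43%, and SMARCC1 0 and 1, beside 0.338% and 2.46%. KMT2D lay at 3 of the 18 in the WT line, beside 10.2% of all genes.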

How the data were processed

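CUT&RUN libraries were made with an Epicypher protocol and kit, per the labels' protocols. Bowtie2, MACS2, FastQC and MultiQC and the build mm10 are named in the submitters' processing notes. Versions, caller settings and the control used are not given in the sources used here. Of 24 samples, 22 had a peak list (197727 peaks) and 2 IgG samples were not analysed here. Each deposited list gave the authors' peak score, the fold enrichment (a ratio), and the −log10 p and −log10 q of each peak, the q-value being adjusted within its list. Scores were not used.

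The genes, gene lists and tests were chosen with earlier results of these data known. Peaks were assigned to the ends (within 1 kb) and loci (20 kb flanks) of RefSeq protein-coding genes (GRCm38.p6) with Python 3.11.15, pandas 2.3.3 and NumPy 2.4.6. Wilson 95% intervals (statsmodels 0.14.6) cover counting error only, and overlaps needed at least 1 base. Read counts were not given, so the depth at the caller was reconstructed from fold enrichment and −log10 p, and the deeper list of a target was thinned to the shallower one. Gene-end assignment and the recovery of signal and background from peak values were tested on simulated data. The thinning was not part of that test. Alternatives were a −log10 q of at least 5, a window of 2.5 kb, annotated starts only, flanks of 5 and 50 kb, leaving out SMARCC1 and leaving out regions called in at least 15 libraries.

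Genes named in full were those whose H3K4me3 call differed between the lines, those with the most locus peaks or the largest differences in them, and those with KMT2D or SOX10 at an end. Sites inside loci were chosen after their values were seen. Values of 1 gene are not reported here on their own, and it remains in the counts over all 37 genes.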

Additional observations from a re-analysis of the deposited data

How the results depend on the processing

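Of 99 recomputed counts, 67 stayed within 1.5 times the reported count, among them all 17 recomputed without regions called in at least 15 libraries. With a −log10 q of at least 5, ARID1A was called at 4 genes in the mutant line only and 1 in the WT line only, H3K4me3 at 2 (Itga8 and Itgb3, and none of the 4 genes of the report) and 1 (Itga3), TFAP2A at 4 in the mutant line only and Menin at 0 in the WT line only. With a window of 2.5 kb, UTX was called at 5 genes in the mutant line only and 2 in the WT line only, ARID1A at 1, Menin at 0 and SMARCC1 at 4 in the WT line only, and KMT2D at 6 genes. At annotated starts, which by construction covers 23 genes, H3K4me3, ARID1A and UTX were each called at 1 gene in the mutant line only, TFAP2A at 2 and TFAP2B at 6, with 0 for ARID1A and UTX in the WT line only. Both ends of those 23 genes, a setting chosen after seeing the data, gave 2 genes for H3K4me3, 1 for ARID1A, 1 for Menin and 3 for TFAP2A in the mutant line only. In the WT line only it gave 1 for ARID1A and 0 for SMARCC1, TFAP2A and UTX, and KMT2D was called at 1 gene. At equal depth Menin was called at 1 gene and TFAP2A at 4 in the mutant line only, and TFAP2A at 2 in the WT line only. Flanks of 50 kb gave 648 mutant locus peaks. Apart from the smaller number of genes with an annotated start, the cause was not tested. No paired analysis was possible because each target had 1 library per line and no result came from a test.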
